A study of Mus musculus with 18 samples.

Results

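The genes described here are 8 members of the sphingosine 1-phosphate (S1P) system: the receptor genes S1pr1, S1pr2 and S1pr3, the sphingosine kinase genes Sphk1 and Sphk2, the exporter gene Spns2, the S1P lyase gene Sgpl1 and the lipid phosphatase gene Plpp3. They were taken by symbol from the 35727 genes of a mouse RNA-seq count table, and all 8 were among the 14864 genes with enough counts to be tested. The table holds 18 libraries in 6 groups of 3. From each of heart and lung there are fibroblasts, cells labelled iEC and cells labelled endothelial, which the design text calls native ECs (ECs below). Every library was made from cells at day 7 kept in EGM2, a growth medium for endothelial cells, and the stated aim was to see whether the cells took on an endothelial identity particular to their organ. The fibroblasts are called controls in the sample titles. Titles of the iEC libraries carry the code SEG, and the labels explain neither that code nor the abbreviation iEC, nor do they give a strain, a genotype, an age or the source of the 3 replicates. The p-values therefore rest on how far these libraries scatter, and that scatter may be only technical.

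S1P is a lysophospholipid made inside cells from sphingosine and carried in blood and lymph. In the vessel wall it leaves endothelial cells through a membrane transporter and acts on G protein-coupled receptors, of which S1pr1 is known for holding endothelial junctions closed and for limiting sprouting, while S1pr2 and S1pr3 also couple to other G proteins. It is removed by phosphatases at the cell surface and in the endoplasmic reticulum and, irreversibly, by the lyase.

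Library totals ranged from 17747632 to 23775372 estimated counts, and levels below are CPM scaled by the trimmed mean of M values (TMM), that is, counts relative to the scaled library total, which can be compared between libraries but not between genes. The summed level of 10 endothelial marker genes was 256 to 283 CPM in heart fibroblasts and 19.1 to 25.5 CPM in lung fibroblasts. It was 2199 to 2353 CPM in heart iECs and 1971 to 2297 CPM in lung iECs. In ECs it was 1761 to 1940 CPM in heart and 2789 to 2872 CPM in lung. Each of the 10 had counts in every group, but they did not all run alike. Erg gave much of the iEC sums, with means of 1024 CPM in heart and 1034 CPM in lung iECs, against 51.5 and 85.5 CPM in ECs. Kdr was also higher in iECs than in ECs of both organs. Cldn5 was at 0.977 CPM in heart iECs, 3.27 CPM in heart fibroblasts and 27.7 CPM in heart ECs. Pecam1 was at 7.13 CPM in lung iECs, 1.91 CPM in lung fibroblasts and 562 CPM in lung ECs. Other cell types' markers were present in the EC libraries too. In heart ECs, 10 fibroblast markers summed to 20268 to 21198 CPM. Heart fibroblasts had 30217 to 31406 CPM and heart iECs 17849 to 19423 CPM. The collagen genes Col1a1, Col1a2 and Col3a1 held most of each of these sums. Dpt means were 341 CPM in heart fibroblasts, 65.9 CPM in heart ECs and 10.6 CPM in heart iECs. In the same order Mfap4 had 387, 10.3 and 12.9 CPM, and Dcn 2178, 2184 and 183 CPM. In lung the same 10 fibroblast markers summed to 35408 to 43370 CPM in fibroblasts, 11177 to 15038 CPM in iECs and 5603 to 6848 CPM in ECs. Lung iECs were thus above lung ECs, whereas heart iECs were below heart ECs. In heart ECs, 5 mesothelial markers summed to 289 to 418 CPM, against 41.3 to 56.9 CPM in heart fibroblasts. In lung ECs, 10 macrophage and leukocyte markers summed to 7934 to 10048 CPM, against 1063 to 1360 CPM in lung fibroblasts and 2486 to 3859 CPM in lung iECs, and 6 epithelial markers to 250.5 to 290.04 CPM, against at most 19.6 CPM in any other lung library. Smooth muscle and pericyte markers, 8 genes, summed to 1404 to 1591 CPM in heart iECs and 3219 to 3937 CPM in lung iECs. Fibroblasts had 305 to 347 CPM in heart and 907 to 1247 CPM in lung. The EC sums were above fibroblasts as well, at 464 to 603 CPM in heart and 1363 to 2127 CPM in lung. Acta2 and Tagln held most of the iEC sums, while Des went the other way in lung iECs, at 15.8 CPM against 71.2 CPM in lung fibroblasts. The same mesothelial markers were low in iECs, at 3.46 to 4.62 CPM in heart and 14.7 to 19.8 CPM in lung, where lung fibroblasts had 208 to 217 CPM. Lymphatic markers, 4 genes, summed to 657 to 766 CPM in heart ECs and 970.1 to 1099.7 CPM in lung ECs, above heart iECs at 233 to 242 CPM and lung iECs at 213 to 291 CPM. The 5 platelet and erythroid markers summed to 94.8 to 156 CPM in lung ECs, 32.6 to 47.5 CPM in lung iECs and 3.66 to 5.50 CPM in lung fibroblasts. Nearly all of this came from Pf4, while Ppbp had means of 0.866, 0.301 and 0 CPM in the same order. The hemoglobin genes Hbb-bs and Hba-a1 had no count in any library. The macrophage and leukocyte sums had the same order as Pf4 in lung, and which cells held Pf4 was not tested. The part of these cells in the results below was not tested, and in such bulk samples fewer cells of a type and less RNA per cell cannot be told apart.

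**Figure D1:**
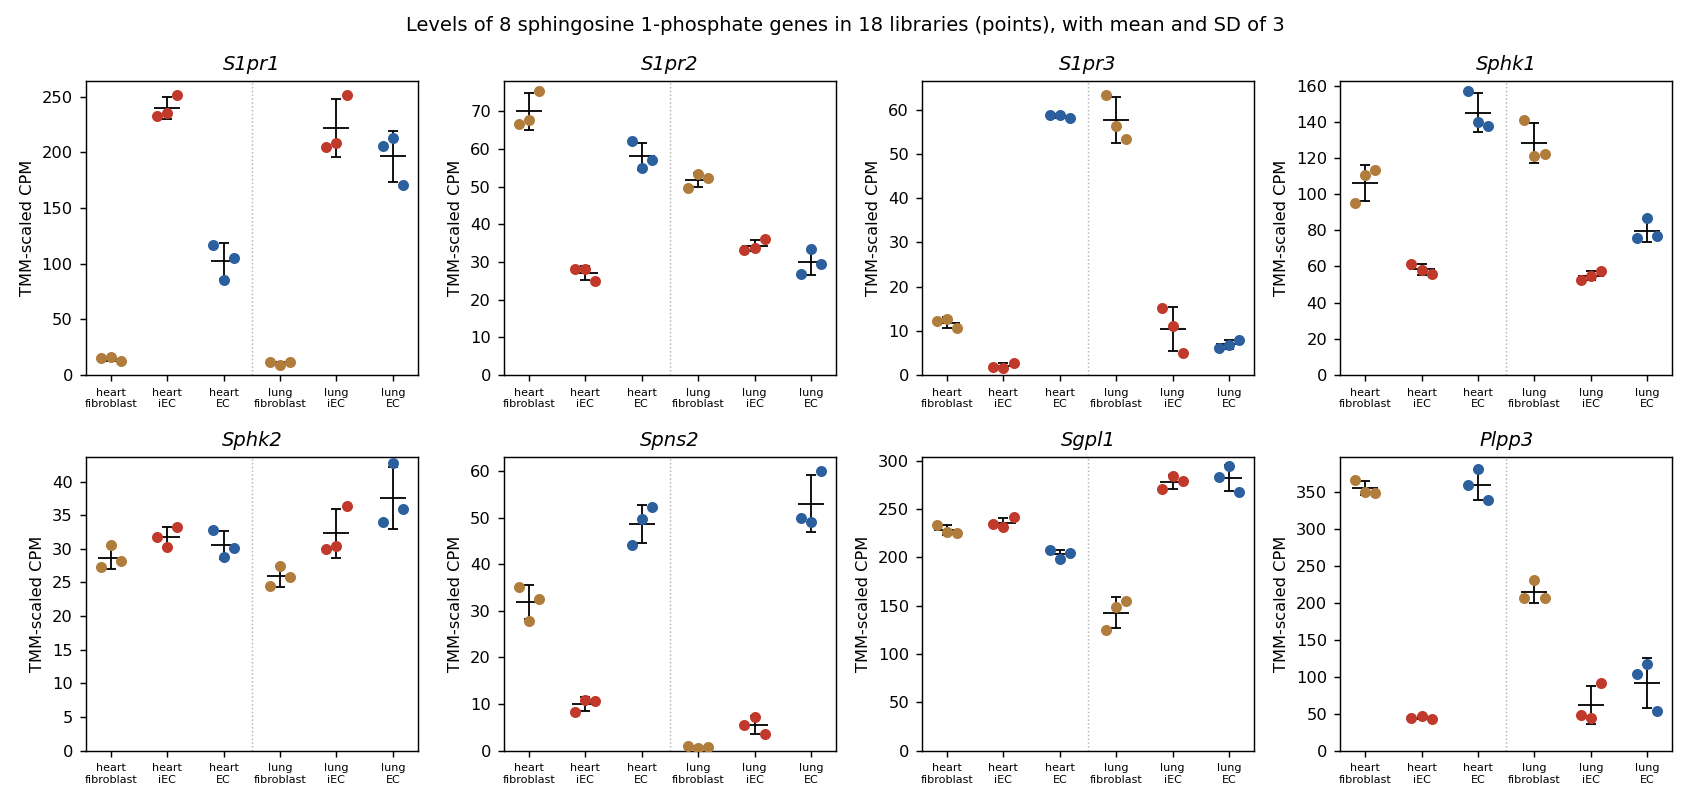
TMM-scaled CPM (vertical axis, linear from 0) of the 8 genes in the 6 groups (horizontal axis), with 1 point per library and the mean and SD of 3 libraries in black. S1pr1 is low in both fibroblast groups and high in all iEC and EC libraries, Plpp3 is low in all heart iEC libraries, and Spns2 is near 0 in lung fibroblasts.

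S1pr1 (ENSMUSG00000045092, GRCm38 chr3:115710433-115715072, minus strand, protein coding) encodes the main endothelial S1P receptor, and it separated all iEC and EC libraries from all fibroblast libraries. In heart it stood at 14.98, 15.7 and 12.3 CPM in the 3 fibroblast libraries, 233, 236 and 251 CPM in iECs and 117, 84.9 and 105 CPM in ECs. In lung the values were 11.2, 8.77 and 11.3 CPM in fibroblasts, 205, 208 and 252 CPM in iECs and 205, 213 and 170.2 CPM in ECs. Heart iECs were above heart ECs in every library, whereas the lung iEC and EC libraries overlapped. Against fibroblasts the log2 difference was 4.06 ± 0.144 (SE) in heart iECs (edgeR quasi-likelihood test, Benjamini-Hochberg adjusted p = 1.39e-13) and 4.41 ± 0.147 in lung iECs (edgeR adjusted p = 8.4e-14). ECs differed from fibroblasts by 2.83 ± 0.139 in heart (edgeR adjusted p = 3.48e-11) and by 4.23 ± 0.146 in lung (edgeR adjusted p = 7.09e-14). Heart iECs exceeded heart ECs by 1.23 ± 0.126 on the log2 scale (edgeR adjusted p = 2.63e-07). Between lung iECs and lung ECs the difference of 0.18 ± 0.124 did not pass the test (edgeR adjusted p = 0.265). Ordered by mean, the steps from heart iECs to lung iECs and on to lung ECs did not pass the test (edgeR adjusted p = 0.51 and 0.265), and heart ECs, heart fibroblasts and lung fibroblasts followed in that order, each below the group before it. The lowest step, lung below heart fibroblasts by 0.46 ± 0.142 on the log2 scale (edgeR adjusted p = 0.012), was lost without heart fibroblast replicate 2 (edgeR adjusted p = 0.0575) or lung fibroblast replicate 2 (0.065), and with library totals as the only scaling (0.0506).

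S1pr2 (ENSMUSG00000043895, chr9:20962361-20976781, minus strand, protein coding) encodes a receptor that couples to several G proteins, and it ran the other way, highest in heart fibroblasts and lowest in heart iECs. Its heart values were 66.6, 67.8 and 75.5 CPM in fibroblasts, 28.2, 28.1 and 24.9 CPM in iECs and 62.0, 55.0 and 57.1 CPM in ECs. Its lung values were 49.7, 53.2 and 52.3 CPM in fibroblasts, 33.2, 33.8 and 36.0 CPM in iECs and 26.8, 33.3 and 29.4 CPM in ECs. In both organs each iEC library was below each fibroblast library. It fell by 1.37 ± 0.0862 on the log2 scale in heart iECs (edgeR adjusted p = 2.58e-10) and by 0.59 ± 0.0852 in lung iECs (edgeR adjusted p = 1.24e-05), both against fibroblasts. The heart EC libraries were also below the heart fibroblast libraries, with a log2 difference of -0.27 ± 0.084 (edgeR adjusted p = 0.0138). That call was lost without heart fibroblast replicate 3 (edgeR adjusted p = 0.079), without heart EC replicate 2 (0.0621) and with library totals as the only scaling (0.125). Lung ECs were lower than lung fibroblasts by a log2 difference of -0.79 ± 0.0855 (edgeR adjusted p = 2.81e-07). By mean level the order was heart fibroblasts, heart ECs, lung fibroblasts, lung iECs, lung ECs and heart iECs, and heart ECs against lung fibroblasts (edgeR adjusted p = 0.111), lung iECs against lung ECs (0.0667) and lung ECs against heart iECs (0.164) did not pass the test. The difference of lung iECs from lung ECs, 0.20 ± 0.0858, passed without lung EC replicate 2 (0.29, edgeR adjusted p = 0.0165) and with library totals as the only scaling (0.25, 0.0215).

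S1pr3 (ENSMUSG00000067586, chr13:51408639-51422797, plus strand, protein coding), whose receptor couples to several G proteins and is found in vascular and mesenchymal cells, was higher in ECs than in fibroblasts of the heart and lower in ECs than in fibroblasts of the lung. It measured 12.3, 12.7 and 10.5 CPM in heart fibroblasts, 1.73, 1.46 and 2.72 CPM in heart iECs and 58.8, 58.9 and 58.2 CPM in heart ECs. In lung, fibroblasts were the high group at 63.5, 56.4 and 53.4 CPM, with iECs at 15.1, 11.04 and 5.07 CPM and ECs at 5.98, 6.85 and 7.96 CPM. Heart iECs held the lowest level of all groups, from 39, 35 and 63 counts in the 3 libraries. Against fibroblasts it fell by 2.59 ± 0.317 on the log2 scale in heart iECs (edgeR adjusted p = 5.73e-06) and by 2.47 ± 0.261 in lung iECs (edgeR adjusted p = 1.23e-06). ECs were above fibroblasts by 2.31 ± 0.261 in heart (edgeR adjusted p = 3.83e-06). The heart EC libraries also had a lower fibroblast and a higher mesothelial marker sum than heart fibroblasts, and the part of this in S1pr3 was not tested. In lung the EC difference from fibroblasts was -3.05 ± 0.27 (edgeR adjusted p = 1.24e-07), and the difference between the organs was -5.36 ± 0.375, lung minus heart (3.25e-08). Heart iECs were below heart ECs in every library, with a log2 difference of -4.89 ± 0.312 (edgeR adjusted p = 4.8e-09). Lung iECs and ECs overlapped and differed by 0.58 ± 0.274 (edgeR adjusted p = 0.0971). Lung iEC replicate 3 was the low library there, and without it the difference was 0.91 on the log2 scale and passed the test (edgeR adjusted p = 0.000324). In the order of means, heart ECs against lung fibroblasts (edgeR adjusted p = 0.949) and heart fibroblasts against lung iECs (0.565) did not pass the test, and heart iECs were below the next group, lung ECs (0.000175).

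The make-up of the receptor genes was compared after dividing counts by the merged exon length of each gene (3046, 7971 and 4463 bases). S1pr1 made up 29.1% ± 3.15 (SD, n = 3) of the summed counts per kilobase of the 3 genes in heart fibroblasts and 14.99% ± 1.89 in lung fibroblasts. Its share was 95.3% ± 0.293 in heart iECs, 91.5% ± 1.88 in lung iECs, 61.9% ± 3.43 in heart ECs and 92.3% ± 1.20 in lung ECs. The leading receptor gene in fibroblasts differed by organ, with S1pr2 at 54.4% ± 4.52 in heart and S1pr3 at 56.5% ± 2.58 in lung, and the ranges of the 3 libraries did not overlap for either gene. Heart ECs retained S1pr3 at 24.5% ± 2.72, against 0.531% ± 0.157 in heart iECs and 2.27% ± 0.564 in lung ECs. With the longest transcript of each gene as its length the leading gene was the same in every group, and S1pr2 came to 59.8% in heart fibroblasts and S1pr3 to 52.8% in lung fibroblasts.

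**Figure D2:**
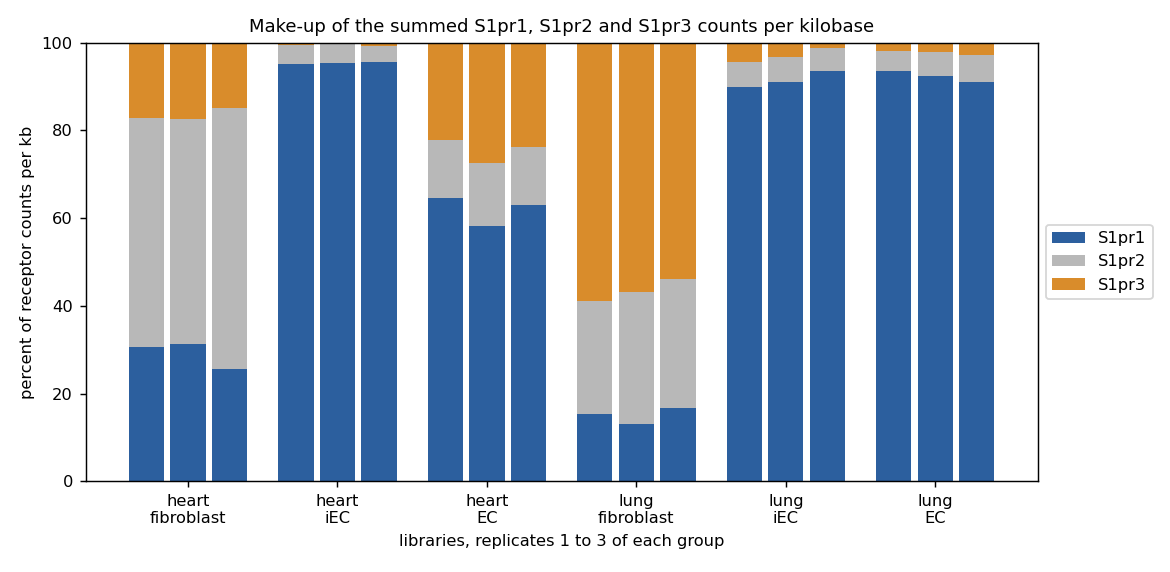
Percent of the summed S1pr1, S1pr2 and S1pr3 counts per kilobase (vertical axis, 0 to 100) taken by each gene, with 1 stacked bar per library in the 6 groups. S1pr1 takes 89.9 to 95.7% of every iEC bar, S1pr2 is the largest part in heart fibroblasts and S1pr3 in lung fibroblasts.

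The other receptor genes of the family were barely detected. S1pr4, a receptor gene of lymphoid and myeloid cells, had 19, 42 and 39 counts in lung ECs, 15, 5 and 9 in heart ECs, and 0 to 3 counts in each fibroblast and iEC library. Lung ECs differed from lung fibroblasts by 4.03 ± 0.81 on the log2 scale, a fitted value that rests on few counts (edgeR adjusted p = 0.000444), and these are the libraries with the highest macrophage and leukocyte markers. Heart iECs had no S1pr4 count, and 3 counts over a group is the level such a result allows. S1pr5 had 0 to 4 counts per library and was not tested.

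Sphk1 and Sphk2 encode the kinases that make S1P from sphingosine, the first mainly in the cytosol and at the plasma membrane, the second also in the nucleus and on internal membranes. Sphk1 (ENSMUSG00000061878, chr11:116530925-116536674, plus strand, protein coding) was low in iECs of both organs. It measured 95.0, 110.4 and 113 CPM in heart fibroblasts, 61.6, 58.3 and 55.6 CPM in heart iECs and 157, 140.0 and 138 CPM in heart ECs. The lung values were 141, 121 and 122 CPM in fibroblasts, 52.5, 54.5 and 57.6 CPM in iECs and 75.9, 87.0 and 76.6 CPM in ECs. No iEC library reached any fibroblast or EC library of its organ. Compared with fibroblasts it fell by 0.86 ± 0.087 on the log2 scale in heart iECs (edgeR adjusted p = 1.49e-07) and by 1.22 ± 0.0876 in lung iECs (edgeR adjusted p = 1.63e-09). Native ECs differed from fibroblasts in opposite directions, by 0.45 ± 0.086 in heart (edgeR adjusted p = 0.00032) and -0.68 ± 0.0863 in lung (edgeR adjusted p = 2.11e-06). iECs were below ECs by a log2 difference of -1.31 ± 0.0875 in heart (edgeR adjusted p = 8.05e-10) and -0.54 ± 0.0869 in lung (edgeR adjusted p = 5.48e-05). Neither the step between heart and lung iECs, the lowest groups (edgeR adjusted p = 0.443), nor that between heart ECs and lung fibroblasts, the highest (0.0914), passed the test.

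Sphk2 (ENSMUSG00000057342, chr7:45709467-45718002, minus strand, protein coding) had the narrowest range of the 8 over the 18 libraries on the log scale, from 24.4 to 42.8 CPM. It lay between 27.4 and 33.2 CPM in all 9 heart libraries, with the 3 heart groups overlapping. In lung the fibroblasts were lowest at 24.4, 27.5 and 25.9 CPM, with iECs at 30.02, 30.4 and 36.4 CPM and ECs at 34.0, 42.8 and 35.9 CPM. Lung iECs exceeded lung fibroblasts by 0.32 ± 0.0981 on the log2 scale (edgeR adjusted p = 0.0121), a call lost without lung iEC replicate 3 (edgeR adjusted p = 0.0869). Lung ECs exceeded them by 0.53 ± 0.0978 (edgeR adjusted p = 0.000131). The heart iEC difference of 0.15 ± 0.0979 did not pass the test (edgeR adjusted p = 0.232), though with library totals as the only scaling it was 0.33 and passed (0.00536). No step between neighbouring groups in the order of means passed the test. Sphk2 overlaps the ends of Dbp and Rpl18 on the opposite strand, and since the use of strand in counting is not given in the sources used here, its counts are uncertain. Per kilobase of merged exon, Sphk1 made up 61.6% ± 1.97 (SD, n = 3) of the counts of both kinase genes in heart iECs and 59.8% ± 1.62 in lung iECs. Its share was 76.3% ± 1.34 and 81.1% ± 2.12 in the fibroblasts of heart and lung, and 80.5% ± 0.516 and 65.0% ± 1.06 in the ECs.

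Spns2 (ENSMUSG00000040447, chr11:72451638-72489904, minus strand, protein coding) encodes the transporter that carries S1P out of endothelial cells. It was high in native ECs of both organs, above every iEC library. The 4 lymphatic markers were also lower in iECs than in ECs of each organ. Their sums in fibroblasts, 279 to 316 CPM in heart and 328 to 366 CPM in lung, were above those in iECs. Of the 10 endothelial markers, Pecam1, Cldn5, Emcn, Egfl7 and Vwf were lower in iECs than in ECs of both organs. Cdh5, Tie1 and Tek were lower in lung iECs, without a call in heart, and Erg and Kdr were higher in iECs of both organs. The part of cells with these markers in the Spns2 values was not tested. Heart values were 35.2, 27.9 and 32.5 CPM in fibroblasts, 8.34, 10.9 and 10.7 CPM in iECs and 44.2, 49.7 and 52.3 CPM in ECs. Lung fibroblasts had 18, 12 and 17 counts, or 1.03, 0.575 and 0.767 CPM, lung iECs 5.55, 7.30 and 3.62 CPM and lung ECs 49.9, 49.1 and 60.1 CPM. No groups overlapped within an organ. Relative to fibroblasts it fell by 1.67 ± 0.176 on the log2 scale in heart iECs (edgeR adjusted p = 3.56e-07) and rose by 2.81 ± 0.272 in lung iECs (edgeR adjusted p = 1.27e-07). The difference between these responses, lung minus heart, was 4.48 ± 0.322 (edgeR adjusted p = 2.4e-08). The fibroblasts themselves differed between organs by -5.34 ± 0.246, lung minus heart (edgeR adjusted p = 1.12e-11). Their endothelial marker sums differed as well, at 256 to 283 CPM in heart and 19.1 to 25.5 CPM in lung fibroblasts. The part of this in the Spns2 values, including the fall in heart and the organ differences, was not tested. ECs exceeded fibroblasts by 0.61 ± 0.166 in heart (edgeR adjusted p = 0.00579) and by 6.08 ± 0.244 in lung (edgeR adjusted p = 7.89e-13), and the difference between heart and lung ECs did not pass the test (0.562). Against ECs, iECs were lower by a log2 difference of -2.28 ± 0.177 in heart (edgeR adjusted p = 9.24e-09) and -3.26 ± 0.188 in lung (edgeR adjusted p = 1.92e-10). The annotation also places antisense genes, not listed in the table, over parts of S1pr3 and Sphk1. The end of Spns2 overlaps Mybbp1a on the opposite strand, which held 59538 counts over the 18 libraries, so its low values in particular are uncertain.

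Sgpl1 (ENSMUSG00000020097, chr10:61098642-61147703, minus strand, protein coding) encodes the lyase of the endoplasmic reticulum that cleaves S1P for good. In heart it was at 234, 226 and 225 CPM in fibroblasts, 235, 231 and 241 CPM in iECs and 207, 198 and 204 CPM in ECs. In lung it was at 124, 149 and 155 CPM in fibroblasts, 270.4, 285 and 279 CPM in iECs and 283, 295 and 268 CPM in ECs. Lung fibroblasts were thus the single low group, below every other library. Lung iECs exceeded them by 0.96 ± 0.0734 on the log2 scale (edgeR adjusted p = 3.84e-09) and lung ECs by 0.98 ± 0.0734 (edgeR adjusted p = 2.04e-09), and the lung iEC and EC libraries overlapped (0.842). In heart, iECs differed from fibroblasts by 0.05 ± 0.0726 (edgeR adjusted p = 0.622), and by 0.23 with library totals as the only scaling, where the test was passed (0.00893). The heart EC difference from fibroblasts of -0.17 ± 0.0727 did not pass (edgeR adjusted p = 0.066) but did in a fit to the compared groups alone (0.00688) or without lung fibroblast replicate 1 (0.00786). Lung fibroblasts lay below heart fibroblasts by a log2 difference of -0.68 ± 0.0732 (edgeR adjusted p = 4.28e-07).

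Plpp3 (ENSMUSG00000028517, chr4:105157347-105232764, plus strand, protein coding) encodes a phosphatase of the cell surface that removes the phosphate from S1P and lysophosphatidic acid outside the cell. Heart fibroblasts stood at 365, 350.1 and 348 CPM and heart ECs at 359, 380.2 and 340 CPM, while heart iECs stood at 43.6, 46.6 and 43.4 CPM. Lung fibroblasts were at 207, 231 and 206 CPM, lung iECs at 48.2, 44.3 and 90.8 CPM and lung ECs at 103, 117 and 53.4 CPM. All iEC libraries were below all fibroblast libraries, and lung iECs and ECs overlapped through replicate 3 of each. It fell by 2.99 ± 0.281 on the log2 scale in heart iECs (edgeR adjusted p = 5.89e-07) and by 1.81 ± 0.269 in lung iECs (edgeR adjusted p = 6.13e-05), in each case against fibroblasts. Lung ECs were below lung fibroblasts by a log2 difference of -1.24 ± 0.264 (edgeR adjusted p = 0.00108), whereas heart ECs differed from heart fibroblasts by 0.02 ± 0.259 (edgeR adjusted p = 0.96). Heart iECs were below heart ECs in every library, by a log2 difference of -3.01 ± 0.282 (edgeR adjusted p = 6.99e-07). The lung iEC to EC difference of -0.58 ± 0.264 did not pass (edgeR adjusted p = 0.091). It was -0.98 without lung iEC replicate 3 (edgeR adjusted p = 0.00231) and -0.85 without lung EC replicate 3 (0.0042), and DESeq2 called it as well, at -0.58 (0.0333). In lung iEC replicate 3, fibroblast markers summed to 11177 CPM and endothelial markers to 2297 CPM, the lowest and highest of the 3 lung iEC libraries, and the part of this in the Plpp3 and S1pr3 values was not tested.

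S1pr2, S1pr3, Sphk1 and Plpp3 fell in the iECs of both organs. The 250 bases upstream of the start are shown for S1pr2, S1pr3 and Plpp3, the members of these with a single RefSeq start, on GRCm38.p6 in the direction of transcription, with GGAA and its reverse complement TTCC, the core of binding sites of ETS factors such as those of endothelial cells, in capitals. The windows are chr9:20976794-20977043 (minus strand), chr13:51408368-51408617 (plus strand) and chr4:105157097-105157346 (plus strand).
S1pr2: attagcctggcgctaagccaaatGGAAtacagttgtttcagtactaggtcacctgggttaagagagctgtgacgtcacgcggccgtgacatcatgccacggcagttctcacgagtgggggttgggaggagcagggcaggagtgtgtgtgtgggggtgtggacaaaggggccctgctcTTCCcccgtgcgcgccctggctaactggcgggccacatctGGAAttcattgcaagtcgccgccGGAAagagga
S1pr3: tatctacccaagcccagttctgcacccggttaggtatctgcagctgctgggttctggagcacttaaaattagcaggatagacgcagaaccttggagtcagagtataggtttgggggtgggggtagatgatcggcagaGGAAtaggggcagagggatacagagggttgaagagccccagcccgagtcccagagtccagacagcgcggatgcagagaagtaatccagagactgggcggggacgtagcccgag
Plpp3: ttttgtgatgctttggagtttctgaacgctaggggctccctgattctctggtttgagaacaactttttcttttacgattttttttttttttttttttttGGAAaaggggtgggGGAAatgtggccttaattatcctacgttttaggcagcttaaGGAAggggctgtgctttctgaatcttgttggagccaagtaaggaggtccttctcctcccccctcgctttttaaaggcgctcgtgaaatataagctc
Counting both strands, GGAA occurs 4 times in the S1pr2 window, 1 time in that of S1pr3 and 3 times in that of Plpp3. This is a common string, held by 93.4% of all 32851 RefSeq windows of 250 bases. CACCC, the core of Krüppel-like factor sites, occurs 1, 2 and 1 times in the same order, and 52.0% of all windows hold it. The longer ETS string CGGAAG (13.6% of all windows), the Sox strings ACAAT (27.7%) and ACAATG (10.7%) and the GATA string AGATAA (9.99%) are not in these 3 windows on either strand. CGGAAG contains GGAA, and ACAATG contains ACAAT. Sphk1, which fell as well, has several RefSeq starts, and these strings do occur in its windows. CGGAAG is in the overlapping windows from chr11:116531587 and chr11:116531661. ACAAT and ACAATG are in that from chr11:116530850. AGATAA is in the overlapping windows from chr11:116532194 and chr11:116532201. No RefSeq window was available for S1pr1.

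Counted over the 8 genes, heart iECs differed from heart fibroblasts in 6, with 1 higher and 5 lower, where 50.7% of all tested genes were called (26% higher, 24.6% lower). Lung iECs differed from lung fibroblasts in all 8, with 4 higher and 4 lower, against 50.6% of all genes (25.9% higher, 24.7% lower). Heart ECs differed from heart fibroblasts in 5, 4 higher and 1 lower, beside 47.4% of all genes (24.2% higher, 23.3% lower). Lung ECs differed from lung fibroblasts in 8, 4 higher and 4 lower, beside 58.1% of all genes (29.3% higher, 28.7% lower). The iEC and EC comparisons share the fibroblast libraries of their organ, so their values stand side by side here and are not independent.

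The iEC response was also tested for a difference between organs. It differed, lung minus heart, for 5 of the 8 genes (25.2% of all genes, 12.6% positive and 12.6% negative): S1pr2, Spns2, Sgpl1 and Plpp3 were less reduced or more raised in lung iECs, and Sphk1 was more reduced. S1pr2 gave 0.78 ± 0.12 (edgeR adjusted p = 0.0001) and Sgpl1 0.91 ± 0.103 (edgeR adjusted p = 3.43e-06), beside the Spns2 value above. Plpp3 gave 1.18 ± 0.372 (edgeR adjusted p = 0.0318) and Sphk1 -0.36 ± 0.122 (edgeR adjusted p = 0.0363), and both calls were lost with no filter on low counts (edgeR adjusted p = 0.0504 and 0.0935), which left 3 genes. The Plpp3 value was 0.78 without lung iEC replicate 3 (edgeR adjusted p = 0.065), and its call was also lost without any 1 of the heart fibroblast or heart iEC libraries or without lung fibroblast replicate 1 or 3 (edgeR adjusted p from 0.0535 to 0.0692). That of Sphk1 was lost without replicate 1 of any of the 4 groups compared or replicate 2 of either iEC group (edgeR adjusted p from 0.0627 to 0.107). For S1pr1 and S1pr3 the response did not pass a test of a difference (0.35 ± 0.188 and 0.12 ± 0.403, edgeR adjusted p = 0.199 and 0.875). The EC to fibroblast difference depended on the organ for all 8 genes (34.5% of all genes), from -5.36 ± 0.375 for S1pr3 to 5.47 ± 0.301 for Spns2 (edgeR adjusted p = 3.25e-08 and 4.15e-10). The Sphk2 call among these, 0.44 ± 0.139 (edgeR adjusted p = 0.0189), was lost without replicate 2 of heart fibroblasts, heart ECs or lung ECs (0.0555, 0.0521 and 0.0637), which left 7.

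**Figure D3:**
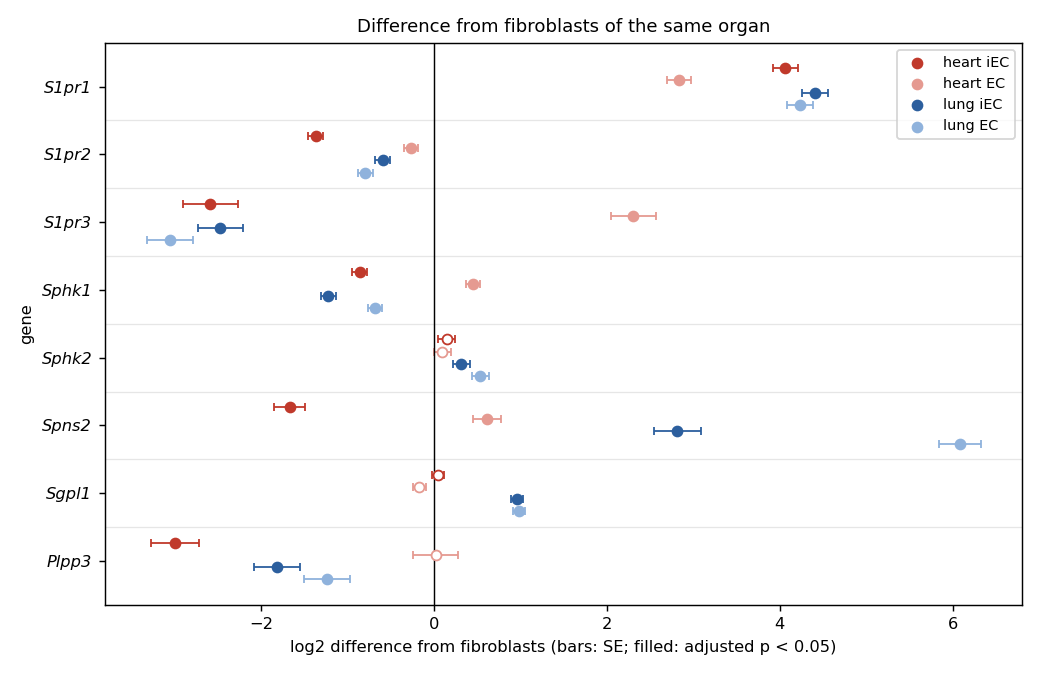
Log2 difference from fibroblasts of the same organ (horizontal axis, with SE bars) for the 8 genes (vertical axis) in iECs and native ECs of heart (reds) and lung (blues), with filled points where the edgeR adjusted p is under 0.05. S1pr1 lies between 2.83 and 4.41 in all 4 comparisons, while S1pr3 is at 2.31 in heart ECs and from -3.05 to -2.47 in the other 3.

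Set against native ECs, heart iECs differed in 7 of the 8 genes, where 48.9% of all genes were called (24.5% higher, 24.4% lower). S1pr1 and Sgpl1 were higher and S1pr2, S1pr3, Sphk1, Spns2 and Plpp3 lower. The Sgpl1 difference of 0.21 ± 0.0727 (edgeR adjusted p = 0.0203) was lost without heart EC replicate 2, heart EC replicate 3 or heart iEC replicate 3 (edgeR adjusted p from 0.0567 to 0.0692). Lung iECs differed from lung ECs in 2 of the 8, Spns2 and Sphk1, both lower, where 45.2% of all genes were called (22.2% higher, 23% lower). Without lung iEC replicate 3 the count was 5, with S1pr3, Sphk2 and Plpp3 added. Sphk2, at -0.22 ± 0.0968 (edgeR adjusted p = 0.0739), also passed without lung EC replicate 1 (-0.29, 0.0374). The difference between organs was itself tested, and 6 of the 8 iEC to EC differences depended on the organ (26% of all genes), with S1pr3 at 5.48 ± 0.413, lung minus heart (edgeR adjusted p = 1.4e-07), and Plpp3 at 2.44 ± 0.377 (edgeR adjusted p = 0.000269).

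**Figure D4:**
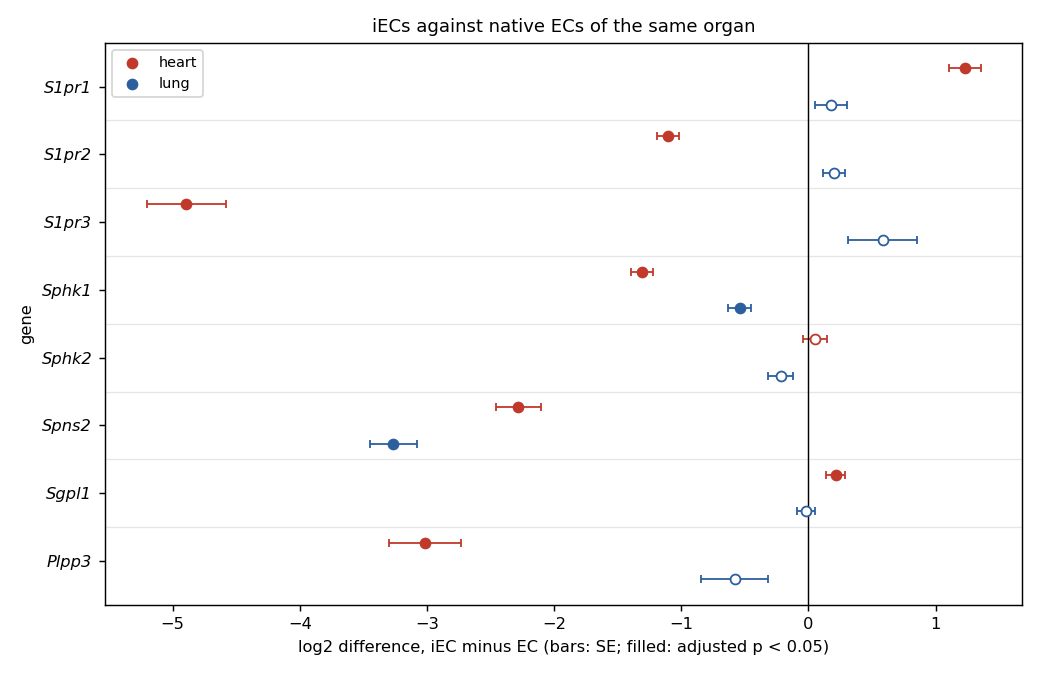
Log2 difference of iECs from native ECs of the same organ (horizontal axis, with SE bars) for the 8 genes (vertical axis) in heart (red) and lung (blue), with filled points where the edgeR adjusted p is under 0.05. The heart values reach from -4.89 for S1pr3 to 1.23 for S1pr1, and in lung the filled points are Spns2 at -3.26 and Sphk1 at -0.54.

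Between organs, lung fibroblasts differed from heart fibroblasts in 7 of the 8 genes (48.5% of all genes, 24.6% higher and 23.9% lower), with S1pr3 and Sphk1 higher and S1pr1, S1pr2, Spns2, Sgpl1 and Plpp3 lower in lung. S1pr3 differed by 2.28 ± 0.261 on the log2 scale (edgeR adjusted p = 3.14e-06). The Plpp3 difference of -0.72 ± 0.261 (edgeR adjusted p = 0.0336) was lost when any 1 of the 6 fibroblast libraries was left out (edgeR adjusted p from 0.0566 to 0.0964), and that of Sphk1, 0.27 ± 0.086 (edgeR adjusted p = 0.0144), without replicate 1 of either group (0.0641 and 0.0939). In iECs 4 of the 8 differed between organs (37.7% of all genes, 18.9% higher and 18.9% lower). S1pr3 was higher in lung iECs by 2.40 ± 0.317 (edgeR adjusted p = 2.17e-05), S1pr2 by 0.34 ± 0.086 (edgeR adjusted p = 0.00403) and Sgpl1 by 0.24 ± 0.0726 (edgeR adjusted p = 0.0148), and Spns2 was lower, at -0.86 ± 0.19 (edgeR adjusted p = 0.0016). The Sgpl1 call was lost without replicate 2 of either iEC group (edgeR adjusted p = 0.0573 and 0.0522). Lung ECs differed from heart ECs in 7 of the 8 (47.9% of all genes, 24.2% higher and 23.7% lower), with S1pr1 at 0.94 ± 0.125, S1pr2 at -0.96 ± 0.0856 and S1pr3 at -3.08 ± 0.27 (edgeR adjusted p = 6.16e-06, 3.51e-08 and 1.72e-07). Sphk1 was at -0.86 ± 0.0865 and Plpp3 at -1.98 ± 0.269 in the same comparison (edgeR adjusted p = 1.64e-07 and 2.91e-05), with Sgpl1 and Sphk2 higher in lung ECs. The Sphk2 value of 0.30 ± 0.0972 (edgeR adjusted p = 0.0178) did not pass without heart EC replicate 2, heart EC replicate 3 or lung EC replicate 2 (edgeR adjusted p from 0.0566 to 0.131).

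Beside the 8 genes stand other genes of S1P and related lipid signalling. Of 11 other receptor genes, S1P and lysophosphatidic acid (LPA) receptors and their close relatives, 7 were tested, and heart iECs had 3 of them above fibroblasts and 1 below, and lung iECs 2 above and 1 below, where the shares over all tested genes were 26% above and 24.6% below in heart and 25.9% and 24.7% in lung. Lpar4 and Lpar6, which encode LPA receptors, rose by 3.61 ± 0.154 and 3.27 ± 0.113 on the log2 scale in heart iECs (edgeR adjusted p = 1.08e-12 and 7.91e-14). In lung iECs they rose by 2.74 ± 0.141 and 2.25 ± 0.107 (edgeR adjusted p = 1.7e-11 and 6.06e-12). Lpar1, another LPA receptor gene, fell by 1.25 ± 0.0632 in heart iECs and by 1.81 ± 0.0649 in lung iECs (edgeR adjusted p = 1.11e-11 and 1.62e-13). Median log2 differences of the list were -0.79 in heart and 0.33 in lung, against 0.02 and 0 over all tested genes. The heart median is the value of Gpr3, at 0.244 CPM in iECs and 0.429 CPM in fibroblasts, which did not pass the test (edgeR adjusted p = 0.354). The lung median is that of Lpar2, also not called (edgeR adjusted p = 0.269). In heart S1pr4 and Lpar3 too rest on at most 1.22 CPM, so these medians describe the list poorly.

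Of 9 genes for carriage, phosphatases and the step after the lyase, 7 were tested, with 3 higher and 1 lower in heart iECs and 5 higher and 2 without a call in lung iECs, against fibroblasts. Over all tested genes 50.7% were called in heart and 50.6% in lung, and the medians of the list were -0.11 and 0.35 against 0.02 and 0. Plpp1, a phosphatase gene of the same family as Plpp3, rose by 1.27 ± 0.0914 in heart iECs (edgeR adjusted p = 1.51e-09) and by 0.35 ± 0.0904 in lung iECs (edgeR adjusted p = 0.00325), opposite to Plpp3. Abca1, a lipid efflux pump gene, rose by 0.87 ± 0.237 and 1.12 ± 0.236 in heart and lung iECs (edgeR adjusted p = 0.00696 and 0.00111).

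Among 32 genes of ceramide, sphingosine and sphingomyelin metabolism, which set the supply of sphingosine, 27 were tested. Heart iECs had 10 higher and 10 lower and lung iECs 11 higher and 6 lower than fibroblasts, where 50.7% and 50.6% of all tested genes were called, with medians of 0.10 and 0.08 against 0.02 and 0 over all tested genes. Acer2, an alkaline ceramidase gene of the Golgi that releases sphingosine, had group means of 9.62 CPM in heart fibroblasts, 88.04 CPM in heart iECs and 85.7 CPM in heart ECs. In lung these means were 1.71, 18.9 and 19.5 CPM. It rose by 3.19 ± 0.122 in heart iECs and by 3.46 ± 0.149 in lung iECs (edgeR adjusted p = 2.54e-13 and 1.8e-12), and ECs of heart and lung exceeded fibroblasts by 3.15 ± 0.122 and 3.50 ± 0.149 (edgeR adjusted p = 2.07e-12 and 7.95e-13). Smpd3, a neutral sphingomyelinase gene, fell by 2.56 ± 0.286 in lung iECs (edgeR adjusted p = 1.72e-06). In heart its mean was instead lowest in fibroblasts, at 6.65 CPM, with 11.4 CPM in iECs and 44.4 CPM in ECs. Heart ECs exceeded heart fibroblasts by 2.75 ± 0.276 (edgeR adjusted p = 7.91e-07). Sgms1, a sphingomyelin synthase gene, rose by 1.20 ± 0.106 in heart iECs (edgeR adjusted p = 2.61e-08).

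The 21 genes of signalling below the receptors (G proteins, receptor kinases, arrestins, small GTPases and their exchange factors and kinases) were all tested, with 7 higher and 6 lower in heart iECs and 9 higher and 5 lower in lung iECs. The shares called over all tested genes were 50.7% and 50.6%, and the medians of the list were 0.12 and 0.04 against 0.02 and 0. Rhob, a small GTPase gene, rose by 2.08 ± 0.0779 in heart iECs and 1.41 ± 0.0764 in lung iECs (edgeR adjusted p = 1.97e-13 and 3.3e-11). Tiam1, an exchange factor gene for Rac, fell by 2.30 ± 0.133 and 1.70 ± 0.137 (edgeR adjusted p = 7.87e-11 and 8.06e-09). Gnai1, of the inhibitory G protein genes through which S1pr1 signals, fell by 1.47 ± 0.139 and 1.10 ± 0.136 (edgeR adjusted p = 5.96e-08 and 2.05e-06). Its means were 28.8 CPM in heart fibroblasts, 10.4 CPM in heart iECs, 28.8 CPM in lung fibroblasts and 13.4 CPM in lung iECs. Arrb1, an arrestin gene, fell by 1.59 ± 0.161 and 1.20 ± 0.168 (edgeR adjusted p = 3.41e-07 and 1.45e-05). Gnai2, another inhibitory G protein gene, was higher in native ECs than in fibroblasts, by 0.58 ± 0.0787 in heart and 0.96 ± 0.0791 in lung (edgeR adjusted p = 9e-06 and 8.12e-09). Its means were 531 CPM in heart fibroblasts, 793 CPM in heart ECs, 419 CPM in lung fibroblasts and 813 CPM in lung ECs. It was not among the changes named for iECs against fibroblasts, so the fall of Gnai1 does not stand for the inhibitory G protein genes as a set.

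The genes whose log2 CPM over the 18 libraries ran most like each member were found among 10303 tested protein-coding genes of at least 10 CPM in some group. These correlations are descriptions over libraries that fall into 6 groups, so the points share a group, a library and its depth. S1pr1 was most like Shroom4 (r = 0.986), Lama3 (0.985) and Thsd1 (0.983), and S1pr2 most like Lgi2 (0.968), Adamtsl4 (0.957) and Gfpt2 (0.955). For S1pr3 the nearest were Cemip (0.938), Gpc3 (0.934) and Sez6l (0.914). Sphk1 ran with Mt1 (0.954), Slc39a14 (0.948) and Vegfc (0.947), and Sphk2, with the narrowest range, with Asb6 (0.908), Dhx38 (0.903) and Senp3 (0.887). Spns2 was nearest to Zdhhc2 (0.966), Ramp2 (0.956) and Grap (0.955). For Sgpl1 the leading genes were Sfmbt1 (0.939), Ubl3 (0.929) and Tent4b (0.916), and for Plpp3 Mocs1 (0.995), C3 (0.980) and Gfpt2 (0.973), the last of which stood near S1pr2 as well.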

How the data were processed

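RNA was measured by mRNA sequencing in 18 libraries of cultured mouse cells. The deposited table holds estimated counts per gene, all whole numbers, and the submitters' processing notes name Salmon, DESeq2 and mm10. Versions, the summing of transcripts to genes and the use of strand are not given in the sources used here. Of 35727 gene IDs, 35422 had a symbol in GENCODE M21, and the rest held 0.0532% of the counts.

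The filterByExpr step of edgeR 4.0.16 (R 4.3.3) kept 14864 genes with 99.97% of the counts, which were scaled by TMM and fitted by robust quasi-likelihood over all 18 libraries with 1 coefficient per group (12 residual degrees of freedom, common biological coefficient of variation 0.135). Calls required an adjusted p (Benjamini-Hochberg, within a contrast) below 0.05. The SE is the absolute log2 change over the square root of F. All p-values after the first in a sentence come from the same test as the first. Pearson's r of log2 CPM (prior count 2) between replicates was 0.975 to 0.989, and their spread was 4.52 to 68.7 times counting error per degree of freedom, so no libraries were merged. On simulated counts for heart iECs against fibroblasts (14617 genes), 41 of 67 genes changed 1.5-fold, 56 of 67 changed 2-fold and 66 of 66 changed 4-fold were called, and 4 of 14417 unchanged genes.

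The members and lists were chosen with earlier results of these data known. All members, S1pr4 and S1pr5 were named, with up to 4 called genes per list and contrast of at least 5 CPM by size of change, and the 3 genes most like each member. Alternatives were DESeq2 1.42.0, RLE scaling, other filters, fits to the compared groups alone, a replicate block, each library left out, the lung EC libraries left out and, chosen after seeing the data, library totals as the only scaling.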

Additional observations from a re-analysis of the deposited data

Results flagged for a closer look

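Each value below is a difference between organs, lung minus heart on the log2 scale, that passed the edgeR test of the difference itself at an adjusted p under 0.05. For the iEC response against fibroblasts these were S1pr2 at 0.78, Sphk1 at -0.36, Spns2 at 4.48, Sgpl1 at 0.91 and Plpp3 at 1.18, the last being 0.78 without lung iEC replicate 3. For native ECs against fibroblasts they were S1pr1 at 1.40, S1pr2 at -0.52, S1pr3 at -5.36, Sphk1 at -1.13, Sphk2 at 0.44, Spns2 at 5.47, Sgpl1 at 1.15 and Plpp3 at -1.26. For iECs against native ECs they were S1pr1 at -1.05, S1pr2 at 1.30, S1pr3 at 5.48, Sphk1 at 0.77, Spns2 at -0.98 and Plpp3 at 2.44. These sets share libraries and are not independent of each other. The heart EC and lung EC libraries also differed in fibroblast, mesothelial, epithelial and leukocyte marker sums. The fibroblast libraries differed in endothelial marker sums, at 256 to 283 CPM in heart and 19.1 to 25.5 CPM in lung. The part of all those in the values was not tested.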

How the results depend on the processing

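Of 2456 values of the 8 genes under the alternatives, 2385 kept their direction and their side of the threshold, 48 lost a call, 14 gained one and 9 changed sign. None of the 9 was called in either setting: Plpp3 in heart ECs against fibroblasts (-0.021 without heart EC replicate 2, up to 0.064 without another library), Sgpl1 in lung iECs against ECs (0.012 without lung EC replicate 2, down to -0.058 without another, 0.027 with library totals), S1pr1 and Sphk1 in lung against heart iECs (0.00413 and 0.0265 with library totals), Sphk2 in the same comparison (-0.012 without heart iEC replicate 2, -0.072 without lung iEC replicate 3, up to 0.073) and the organ difference of the S1pr3 iEC response (-0.064 without heart iEC replicate 2, -0.24 without lung iEC replicate 1, up to 0.44). The count of the 8 genes called in lung iECs against ECs was 2, and 2 to 5 with 1 library left out. For the organ difference of the iEC response it was 5, and 3 with no filter, 3 with a replicate block and 3 to 5 with 1 library left out, being 3 without replicate 1 of heart fibroblasts, heart iECs or lung fibroblasts, or heart iEC replicate 2.

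No pairing by replicate number was seen: same-numbered libraries of the 15 pairs of groups deviated with r from -0.398 to 0.117, and in 0 pairs was every r over 0.1. With 3 libraries per group this cannot show that same-numbered libraries shared no culture or batch. The replicate block ended 3 of the calls on the 8 genes, Plpp3 in lung against heart fibroblasts (edgeR adjusted p = 0.0524) and the organ differences of the iEC response of Sphk1 (0.0552) and Plpp3 (0.0526), and changed none of the other 93 values' calls. Library totals as the only scaling moved the median of all genes by 0.11 to 0.19 on the log2 scale in 7 of the 12 contrasts, where 60.9 to 69.3% of calls were then higher, against 50.0 to 51.4% with TMM. RLE scaling and DESeq2 moved it by at most 0.03. DESeq2 added the Plpp3 call in lung iECs against ECs.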
